A study of Homo sapiens with 4 samples.

Results

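The analysis concerned 10 genes that mark the mesenchymal state of neuroblastoma, VIM, FN1, CD44, PRRX1, SNAI2, TWIST1, MEOX2, FOSL1, YAP1 and NOTCH2. They were taken as a fixed list by name from 20163 protein-coding genes, and for each the transcription start site (TSS) of its canonical transcript in GENCODE on GRCh37 (hg19) was used. All 10 were found. Nucleosomes had been mapped in BE(2)C, an established human neuroblastoma line with amplified MYCN, which the labels write as BE2C. There were 4 libraries of MNase-seq, 2 from cells given a control siRNA (genotype label wild type) and 2 from cells given an siRNA against MYCN (genotype label N-myc kd). All 4 came from this line, were incubated with 80 nM siRNA for 6 h according to the labels, and were taken the next day. The study's methods state a lower final concentration. Micrococcal nuclease (MNase) had been applied to crosslinked chromatin. It digests the DNA between nucleosomes, so that the fragments sequenced are those that nucleosomes protected. These data hold no transcript levels, so neither the knockdown nor the state of the cells could be checked in them.

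Neuroblastoma cells occur in an adrenergic, sympathetic neuron-like state and in a mesenchymal, neural crest-like state, and cells can pass from the one to the other. The adrenergic state is held by factors such as HAND2 and GATA3, whereas PRRX1, AP-1 factors, YAP1 and NOTCH signalling are known to drive the mesenchymal state. Mesenchymal cells are more motile and resist chemotherapy. The 10 genes fall into 3 kinds. VIM encodes the intermediate filament vimentin, FN1 the matrix protein fibronectin and CD44 a receptor for hyaluronan. PRRX1 and MEOX2 are homeobox factors, SNAI2 and TWIST1 bind E-boxes and act in epithelial-to-mesenchymal transition, and FOSL1 is a subunit of AP-1. YAP1 is the coactivator that the Hippo pathway holds back, and NOTCH2 is a receptor of NOTCH ligands. Active promoters commonly carry a nucleosome-poor stretch just upstream of the TSS with ordered nucleosomes on either side, and the question here was how the promoters of these genes are packed and whether that changed upon MYCN knockdown.

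The sequences just upstream of the TSS are shown for 4 of the genes, a low (VIM, 50% G or C) and a high (FN1, 81%) GC content and one gene each with a TEAD motif (YAP1) and a TATA box (MEOX2). The sequences are GRCh37, 5′ to 3′ on the strand of the gene, and each is 200 bp long. They lie upstream of every annotated start of their gene, the FN1 stretch reaches into the divergent transcript FN1-DT, and the YAP1 stretch is transcribed from the other strand in the annotation. Capitals mark bases that lay inside a called nucleosome, taken as 147 bp around its centre, in all 4 libraries.
VIM, chr10:17270040-17270239, plus strand: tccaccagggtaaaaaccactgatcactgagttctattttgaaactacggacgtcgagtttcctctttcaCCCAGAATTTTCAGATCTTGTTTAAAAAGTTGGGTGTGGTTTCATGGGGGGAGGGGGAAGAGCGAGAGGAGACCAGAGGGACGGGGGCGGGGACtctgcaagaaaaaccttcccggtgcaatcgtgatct
FN1, chr2:216300797-216300996, minus strand: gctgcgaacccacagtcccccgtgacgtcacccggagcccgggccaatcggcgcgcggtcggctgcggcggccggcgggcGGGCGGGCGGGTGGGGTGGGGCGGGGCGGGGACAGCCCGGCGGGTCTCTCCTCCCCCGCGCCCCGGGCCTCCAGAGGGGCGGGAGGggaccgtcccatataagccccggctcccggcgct
YAP1, chr11:101980978-101981177, plus strand: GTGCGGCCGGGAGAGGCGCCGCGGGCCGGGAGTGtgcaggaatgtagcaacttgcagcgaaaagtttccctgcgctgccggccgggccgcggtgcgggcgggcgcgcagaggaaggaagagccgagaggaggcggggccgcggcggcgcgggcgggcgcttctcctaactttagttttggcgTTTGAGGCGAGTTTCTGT
MEOX2, chr7:15726309-15726508, minus strand: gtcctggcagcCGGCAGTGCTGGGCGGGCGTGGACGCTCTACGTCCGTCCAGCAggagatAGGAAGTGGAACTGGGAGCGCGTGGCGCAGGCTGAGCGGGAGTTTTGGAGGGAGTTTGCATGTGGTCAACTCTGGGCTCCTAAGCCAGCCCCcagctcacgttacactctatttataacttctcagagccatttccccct
In MEOX2 135 of the 200 bp, in VIM 94 and in FN1 86 were inside a nucleosome in every library. In YAP1 52 were, and the capitals lie at both ends with a long run between them that was outside a nucleosome in at least 1 library.

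Short motifs were searched on both strands in the 200 bp upstream of the canonical TSS of all 10 genes and of all 20163 promoters. In FN1 the searched stretch lies 5 bp downstream of the printed one, which begins at the most upstream start. The E-box of MYC and MAX dimers, CACGTG, was in none of the 10 and in 6.93% of all promoters. The E-box that SNAI and TWIST type factors prefer, CAGGTG, was also in none, against 13.9%, and the AP-1 motif TGANTCA was in none, against 3.74%. The TEAD motif GGAATG, the partner sequence of YAP1, occurred once, in the promoter of YAP1 itself, at −162 to −157 bp from the TSS (negative is upstream), and in 7.45% of all promoters. The TATA box TATAAA was in MEOX2, read on the opposite strand at −29 to −24 bp, and in TWIST1 at −111 to −106 bp, and in 7.83% of all promoters. A match is a description of the letters and not of a bound site.

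The sequence under one nucleosome of NOTCH2 is shown because it was called within 10 bp in all 4 libraries with a narrow spread of reads. It was picked after the values were seen. The 147 bp are GRCh37, 5′ to 3′ on the minus strand of NOTCH2, and capitals mark the bases over which the 4 called centres spread.
NOTCH2 nucleosome, chr1:120612483-120612629, minus strand: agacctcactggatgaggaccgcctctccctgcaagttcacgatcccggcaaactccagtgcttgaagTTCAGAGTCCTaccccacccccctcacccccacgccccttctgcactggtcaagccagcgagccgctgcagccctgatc
The run has 62.6% G or C. In the annotation it lies in an intron of a longer NOTCH2 transcript and overlaps no exon.

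The deposited lists give, for each called nucleosome, its centre (the dyad), the number of reads (read-pair midpoints) assigned to it and its fuzziness. The libraries held 10527010 to 12178724 nucleosomes with 147370973 to 242544884 reads in them. Replicates numbered 2 were deeper, with a median of 18 reads a nucleosome against 12, in both groups alike, and no nucleosome had fewer than 6. A nucleosome below 6 reads is therefore missing from a list, which happens more often in the shallower libraries. The study's methods call the replicates biological. Neither they nor the labels say whether these came from separate cultures, and p-values measure the spread between these libraries. With 2 libraries against 2, an exact permutation test has 6 arrangements and cannot go below p = 0.333 (two-sided), and no single value was tested that way.

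Occupancy of a promoter was taken as the reads of all called nucleosomes with their dyad between 2000 bp before and 1000 bp after the TSS, given in RPM with the reads in all called nucleosomes of that library as the total. NOTCH2 stood at the top with a mean of 3.10 RPM over the 4 libraries, at percentile 99.8 of all promoters. It was followed by MEOX2 (1.61) and FOSL1 (1.54) at percentiles 91.9 and 88.8. TWIST1 (1.35), PRRX1 (1.34), FN1 (1.33), YAP1 (1.18) and VIM (0.98) lay between percentiles 39.6 and 75.3, and CD44 (0.747) and SNAI2 (0.691) lay at 21.6 and 17.5. Neighbours in this order overlapped over the 4 libraries, except that NOTCH2 stood apart from MEOX2 and YAP1 from VIM.

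**Figure D1:**
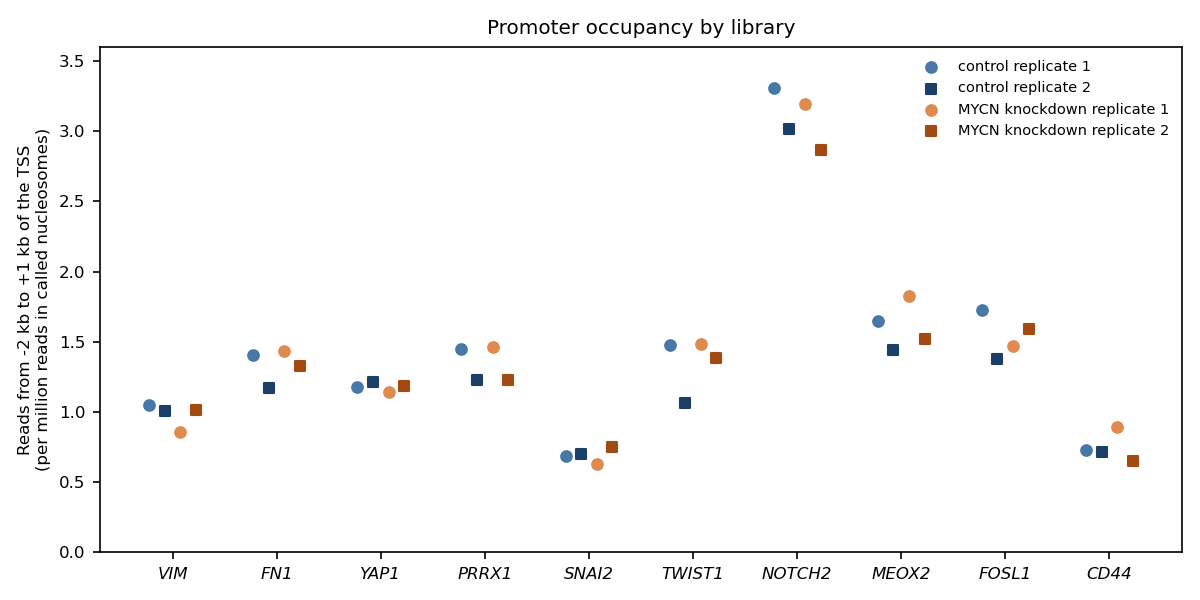
Promoter occupancy of the 10 genes in each library. The y axis gives RPM between 2000 bp before and 1000 bp after the TSS, and each symbol is 1 library (circles replicate 1, squares replicate 2, blue control, orange MYCN knockdown). NOTCH2 sits near 3 in all 4 libraries, and in every gene the control and knockdown symbols overlap in range.

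Upon MYCN knockdown the occupancy of none of the 10 promoters passed the test, and none of 20106 promoters did (0%). The test was edgeR's quasi-likelihood test on promoters holding 10 or more reads on average, adjusted by Benjamini-Hochberg, with an adjusted p under 0.05 called. At an unadjusted p under 0.05 there were 632 promoters (3.14%) with edgeR and 209 with DESeq2, which also called 0, and 0 of the 10 genes with either. The log2 changes of the 10 genes ran from −0.10 to 0.22 around a median of 0.03. Over all promoters the median was 0.00 and the 5th and 95th percentiles were −0.26 and 0.27, so all 10 lay inside that range. The log2 change was positive in 7 of the 10 genes and in 49.99% of all promoters. It had the same sign at both replicate numbers in 4 genes that were higher and 2 that were lower, against 26.1% and 25.7% of all promoters.

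**Figure D2:**
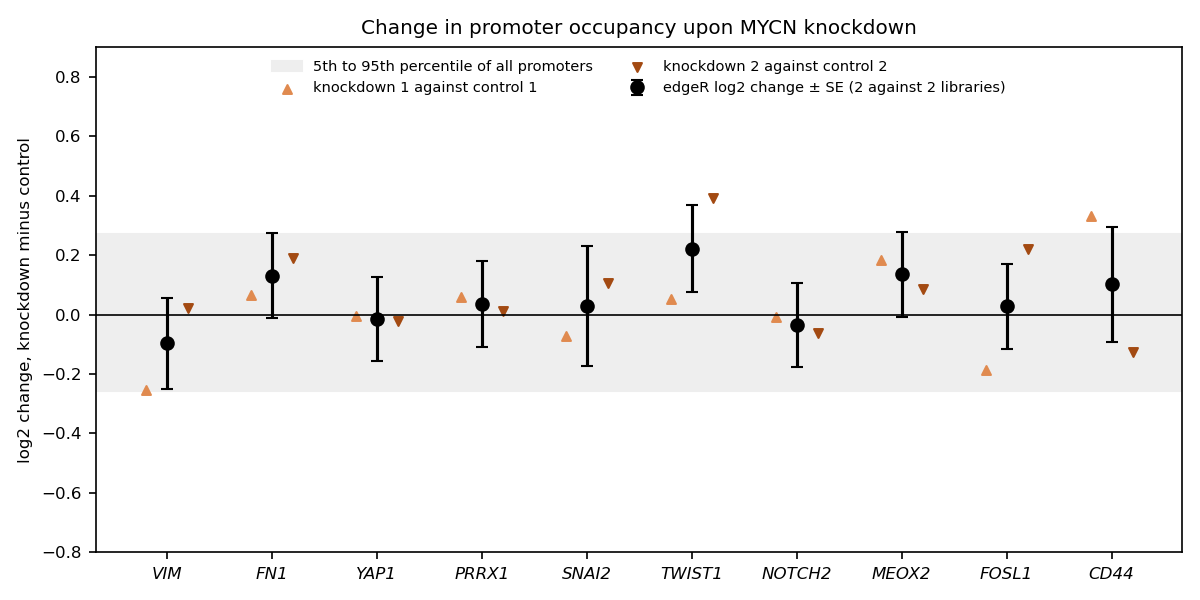
Change in promoter occupancy upon MYCN knockdown for the 10 genes. The y axis is the log2 change, knockdown minus control. Black points are the edgeR estimate with its SE from 2 against 2 libraries, triangles compare same-numbered libraries, and the grey band runs from the 5th to the 95th percentile of all promoters. All 10 estimates lie in the band, and the triangles of VIM, SNAI2, FOSL1 and CD44 lie on opposite sides of 0.

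Of the structural genes, VIM (TSS at chr10:17270240, plus strand) had promoter reads of 155 (replicate 1) and 244 (replicate 2) under control siRNA and of 126 and 242 under MYCN siRNA. The shallower knockdown library was the lowest in RPM (0.855), and the others were at 1.01 to 1.05. The log2 change was −0.10 ± 0.15 (SE, n = 2 per group, adjusted p = 0.999 by edgeR).
FN1 (TSS at chr2:216300791, minus strand) had 208 and 284 reads in the controls and 211 and 317 in the knockdown libraries. In RPM the groups overlapped, with 1.41 and 1.17 in the controls and 1.43 and 1.32 in the knockdown libraries. Its log2 change was 0.13 ± 0.14 (SE).
CD44 (TSS at chr11:35160718, plus strand) had 108 and 173 reads in the controls and 132 and 155 in the knockdown libraries. Both the highest (0.896 RPM) and the lowest (0.648) value of CD44 were knockdown libraries. The log2 change of 0.10 ± 0.19 (SE) combined 0.33 at replicate number 1 with −0.13 at number 2.

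Among the transcription factors, TWIST1 (TSS at chr7:19157259, minus strand) had the highest log2 change of the 10 genes. It had 218 and 258 reads in the controls and 219 and 331 in the knockdown libraries. In RPM that was 1.48 and 1.06 against 1.49 and 1.38, so that control replicate 2 was the lowest library and the other 3 lay together. The log2 change was 0.22 ± 0.15 (SE, adjusted p = 0.999 by edgeR), and without control replicate 2 it was −0.01. In the fit with a replicate block and a GC correction it was 0.27 at an adjusted p = 0.914.
MEOX2 (TSS at chr7:15726308, minus strand), where reads were 244 and 350 in the controls and 269 and 363 in the knockdown libraries, changed by 0.14 ± 0.14 (SE) on the log2 scale. PRRX1 (TSS at chr1:170633272, plus strand) had 214 and 298 reads in the controls and 216 and 294 in the knockdown libraries, nearly the same at each replicate number. FOSL1 (TSS at chr11:65667859, minus strand) had 255 and 334 reads in the controls and 217 and 381 in the knockdown libraries, with log2 changes of −0.19 at number 1 and 0.22 at number 2. None of these groups was separated.
SNAI2 (TSS at chr8:49833988, minus strand) had the lowest mean occupancy, with reads of 101 and 170 in the controls and 93 and 179 in the knockdown libraries, and the largest SE (log2 change 0.03 ± 0.20). Its promoter window was also the poorest in G and C of the 10, at 43.7%, and 62.3% in TWIST1 was the highest.

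Over this promoter window both signalling genes had log2 changes near 0. YAP1 (TSS at chr11:101981178, plus strand) had 174 and 294 reads in the controls and 168 and 283 in the knockdown libraries, a log2 change of −0.02 ± 0.14 (SE). NOTCH2 (TSS at chr1:120612276, minus strand) had 489 and 731 reads in the controls and 471 and 685 in the knockdown libraries, a log2 change of −0.04 ± 0.14 (SE). The high level of NOTCH2 was local. Within 5 kb of its TSS the reads were 2.66 times those of the median 10000-bp bin of the genome, while the median bin within 500 kb was at 1.36 times. In FOSL1 both were raised, 1.68 and 1.44 times, and in CD44 both were low, 0.714 and 0.629 times. The annotation holds 4 NOTCH2NL genes, partial and near-identical copies of NOTCH2, among which the aligner could split or misplace reads, so the values of NOTCH2 are uncertain. What share of its reads came from the copies was not tested.

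The 5-kb surroundings were also cut into 500-bp windows, 20 per gene, and tested with edgeR in the same way. Of the 200 windows of the 10 genes 196 passed the filter, and 0 of these and 0 of 391944 windows in all (0%) were called. DESeq2 called 0 as well. At an unadjusted p under 0.05 there were 5 windows of the 10 genes (2.55%) with edgeR and 3 with DESeq2, and 3.11% and 6843 of all windows. With edgeR this number rose when any 1 library was left out, both in the 10 genes and over all windows. The 5 were in PRRX1, YAP1, CD44, SNAI2 and VIM, 2 higher and 3 lower upon knockdown.

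The nucleosomes of the 3 windows with the smallest p were as follows. In PRRX1 from 4500 to 4999 bp downstream of the TSS, inside the gene, the reads were 50 and 89 in the controls and 30 and 20 in the knockdown libraries (log2 change −1.34 ± 0.42 SE, adjusted p = 1 by edgeR). The log2 change was −2.05 without knockdown replicate 1 and −0.76 without knockdown replicate 2. The 2 controls had a dyad at 4500 and 4509 bp with 23 and 37 reads, while knockdown replicate 1 had one at 4432 bp with 15 reads and knockdown replicate 2 one at 4494 bp with 30 reads, both outside the window. Knockdown replicate 2 then had no dyad before 4841 bp, where the other 3 libraries had one at 4671 to 4707 bp.
In YAP1, over the 500 bp just upstream of the TSS, the reads were 42 and 88 in the controls and 27 and 36 in the knockdown libraries (log2 change −0.95 ± 0.33 SE, adjusted p = 1 by edgeR).
In YAP1 the dyad nearest to the TSS lay at 26 and −8 bp in the controls and at 55 and 48 bp in the knockdown libraries, and the next one upstream at −183 and −219 bp in the controls and at −238 and −240 bp in the knockdown libraries. The groups did not overlap in either position. Groups were apart in the nearest dyad in 31.2% of all promoters and 6 of the 10 genes, and in the next one upstream in 30.1% and 5 genes. Both were apart in 11.4% of all promoters and in 4 of the 10 genes (YAP1, PRRX1, MEOX2 and FOSL1), and this measure was added after the positions in YAP1 had been seen. The 2 positions are not separate observations, because the next dyad upstream is counted from the nearest one. In MEOX2 the nearest dyad lay at 63 and 112 bp in the controls and at −67 and −116 bp in the knockdown libraries. The MEOX2 controls also had a dyad at −121 and −122 bp, and the knockdown libraries one at 142 and 137 bp. The nearest dyad thus changed side of the TSS, which is not by itself a move of a nucleosome over that distance. In PRRX1 the nearest dyad lay at 74 and 67 bp against −117 and 31 bp, and knockdown replicate 1 also had a dyad at 122 bp. Farther upstream in YAP1, knockdown replicate 2 had a nucleosome of 16 reads at −525 bp, outside the 500-bp window of YAP1. The controls of YAP1 had theirs at −487 and −442 bp, inside it. In CD44 from −3500 to −3001 bp the reads were 14 and 11 in the controls and 30 and 38 in the knockdown libraries (log2 change 1.44 ± 0.51 SE, adjusted p = 1 by edgeR). Each control had 1 nucleosome there and each knockdown library 3, the last of them at −3060 and −3039 bp, where the controls had theirs past the edge of the window at −2998 and −2939 bp. The log2 change was 0.94 without control replicate 2 and 2.00 without control replicate 1.

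The region around the TSS was examined next. The study defines a nucleosome-free region as the stretch that begins 200 bp before the TSS and ends 50 bp after it, filled when at least 80% of a nucleosome (118 of 147 bp) lies in it. Over the 20079 promoters with reads within 1 kb in all libraries, 58.4% and 52.6% were empty in the controls and 60.3% and 52.1% in the knockdown libraries. Of the 10 genes 3 and 3 were empty in the controls and 5 and 4 in the knockdown libraries. None was empty in all 4 libraries, against 32.3% of all promoters, and 4 were filled in all 4, against 19.96%.

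The 4 genes filled in every library were VIM, FN1, MEOX2 and FOSL1. In MEOX2 the nucleosome over the window had 20 and 33 reads in the controls and 16 and 27 in the knockdown libraries, and in FOSL1 21 and 26 against 20 and 24. The order of these values followed the depth of the libraries. FN1 had 10 and 20 reads in the controls and 8 and 16 in the knockdown libraries. VIM had 6 and 8 reads in the controls, close to the minimum of 6, and 13 and 9 in the knockdown libraries. The read density in the window, counted by dyad and divided by the density within 5 kb of the TSS, was 1.41 in MEOX2 at percentile 91.6, the highest of the 10, and 0.150 in SNAI2, the lowest, against a median of 0.621 for all promoters.
Summed by dyad over the window, YAP1 had 28 and 26 reads in the controls and 0 and 13 in the knockdown libraries. Tested on this window alone its log2 change was −2.21 (adjusted p = 1 by edgeR), beside −0.02 over the promoter. In RPM both knockdown libraries were below both controls in YAP1, FN1, PRRX1 and MEOX2, as in 11.8% of all promoters, and in none of the 10 genes were both above, against 10.4%. In FN1, PRRX1 and MEOX2 the log2 changes on this window were −0.25 to −0.27, and this count was added after the values had been seen.

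The other 6 genes changed state between libraries without following the groups. YAP1 was filled only in control replicate 2 (26 reads), CD44 only in control replicate 2 (11 reads), TWIST1 only in control replicate 1 (7 reads) and SNAI2 only in knockdown replicate 2 (9 reads). An empty state did not always mean a missing nucleosome. The one of TWIST1 was called in all 4 libraries, with dyads at 0 and 22 bp (7 and 18 reads) in the controls. In the knockdown libraries it lay at 10 and 19 bp (9 and 14 reads). YAP1 counted as empty in control replicate 1 with 28 reads by dyad in the window. PRRX1 was filled in both controls (12 and 20 reads) and in knockdown replicate 1 (9 reads), and NOTCH2 in control replicate 1 (13 reads) and knockdown replicate 2 (19 reads). None of the 10 was filled in both libraries of one group and empty in both of the other, in either direction. Over the 20079 promoters 445 were filled in both knockdown libraries and empty in both controls, and 482 the other way round. Between same-numbered libraries 2 genes were emptied and 0 filled at number 1, against 12.7% and 10.9% of all promoters. At number 2, 3 were emptied and 2 filled, against 13.2% and 13.7%. Between the controls 4 genes differed and between the knockdown libraries 3, against 26.7% and 27.1% of all promoters. The difference of 1.5 genes in the mean number empty depended on the definition. When the dyad alone had to lie in the window, 2 and 2 were empty in the controls and 3 and 0 in the knockdown libraries. Of all promoters 39.9% and 32.9% were then empty in the controls and 42.0% and 32.5% in the knockdown libraries. Other annotated start sites lie upstream of the canonical one in PRRX1 (by up to 1403 bp), SNAI2 (311 bp), NOTCH2 (31090 bp), FOSL1 (185 bp), CD44 (289 bp) and FN1 (5 bp). At the most upstream sites 3 and 3 of the 10 windows were empty in the controls and 5 and 5 in the knockdown libraries. Of all promoters 53.5% and 48.0% were empty there in the controls and 55.0% and 47.8% in the knockdown libraries.

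**Figure D3:**
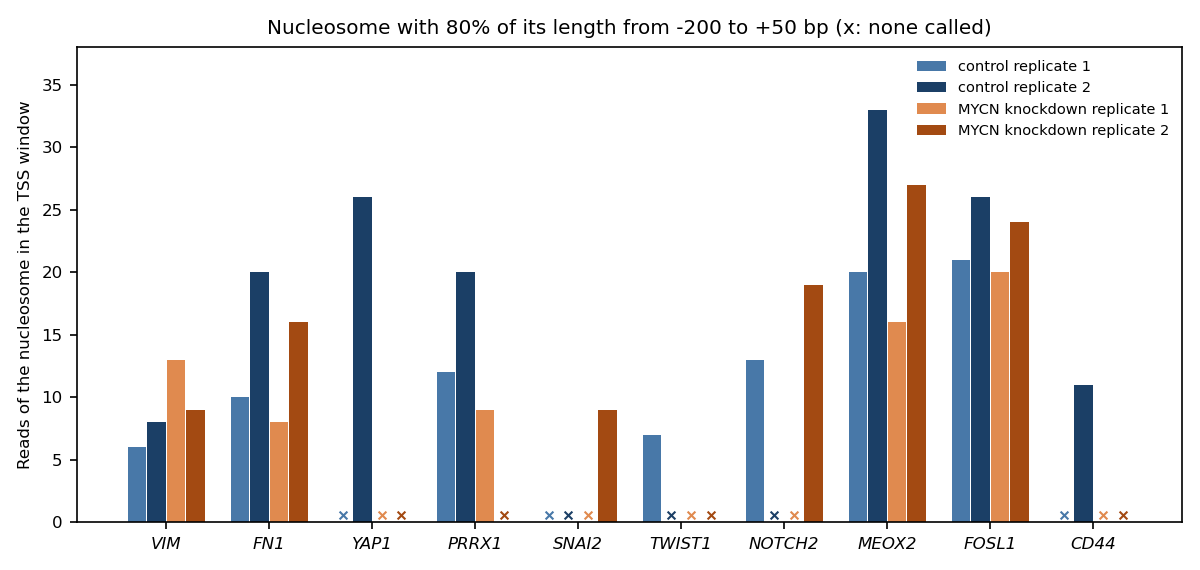
Reads of the nucleosome that fills the TSS window of each of the 10 genes in each library. The y axis gives reads of the called nucleosome with at least 80% of its length in the window (200 bp before to 50 bp after the TSS), bars are single libraries (blue control, orange MYCN knockdown), and a cross means that none was called. VIM, FN1, MEOX2 and FOSL1 have 4 bars, and no gene has bars in both libraries of one group only.

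The widest distance between neighbouring dyads that reached into this window was measured as well, a quantity chosen after the positions in YAP1 had been seen. Its median over all promoters was 341 and 311 bp in the controls and 351 and 312 bp in the knockdown libraries. Over the 10 genes the medians were shorter, 257 and 238 bp in the controls and 277 and 249 bp in the knockdown libraries. In PRRX1 it was 224 and 236 bp in the controls and 258 and 375 bp in the knockdown libraries, and in FOSL1 226 and 239 bp against 260 and 248 bp. These 2 genes were wider in both knockdown libraries than in both controls, as were 15.7% of all promoters. FN1 was narrower in both, with 283 and 253 bp against 200 and 247 bp, as were 13.8% of all promoters. In YAP1 the groups overlapped on this measure (304 and 227 bp against 293 and 288 bp), and the widest distance of the controls lay at another place. These shares were near those of all promoters.

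VIM has further annotated start sites. The one where a pair of transcripts begins 1037 bp downstream of the canonical TSS (chr10:17271277) was picked after the values were seen. The same window around this site was empty in both controls and in knockdown replicate 1, and held 9 reads in knockdown replicate 2. The dyads on either side of the window's centre were 360 and 442 bp apart in the controls and 378 and 317 bp apart in the knockdown libraries. At the canonical site of VIM, the widest distance reaching into the window was 415 and 215 bp in the controls and 587 and 250 bp in the knockdown libraries. In knockdown replicate 1 no nucleosome was called between −110 and 477 bp of the canonical site, where each other library had 3. An empty window at a further start site was not particular to VIM. The window was empty in all 4 libraries at the YAP1 site 2067 bp downstream. At the CD44 site 289 bp upstream it was empty in all but control replicate 2 (17 reads). Of the canonical windows of all promoters 52.1% to 60.3% were empty in a library.

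**Figure D4:**
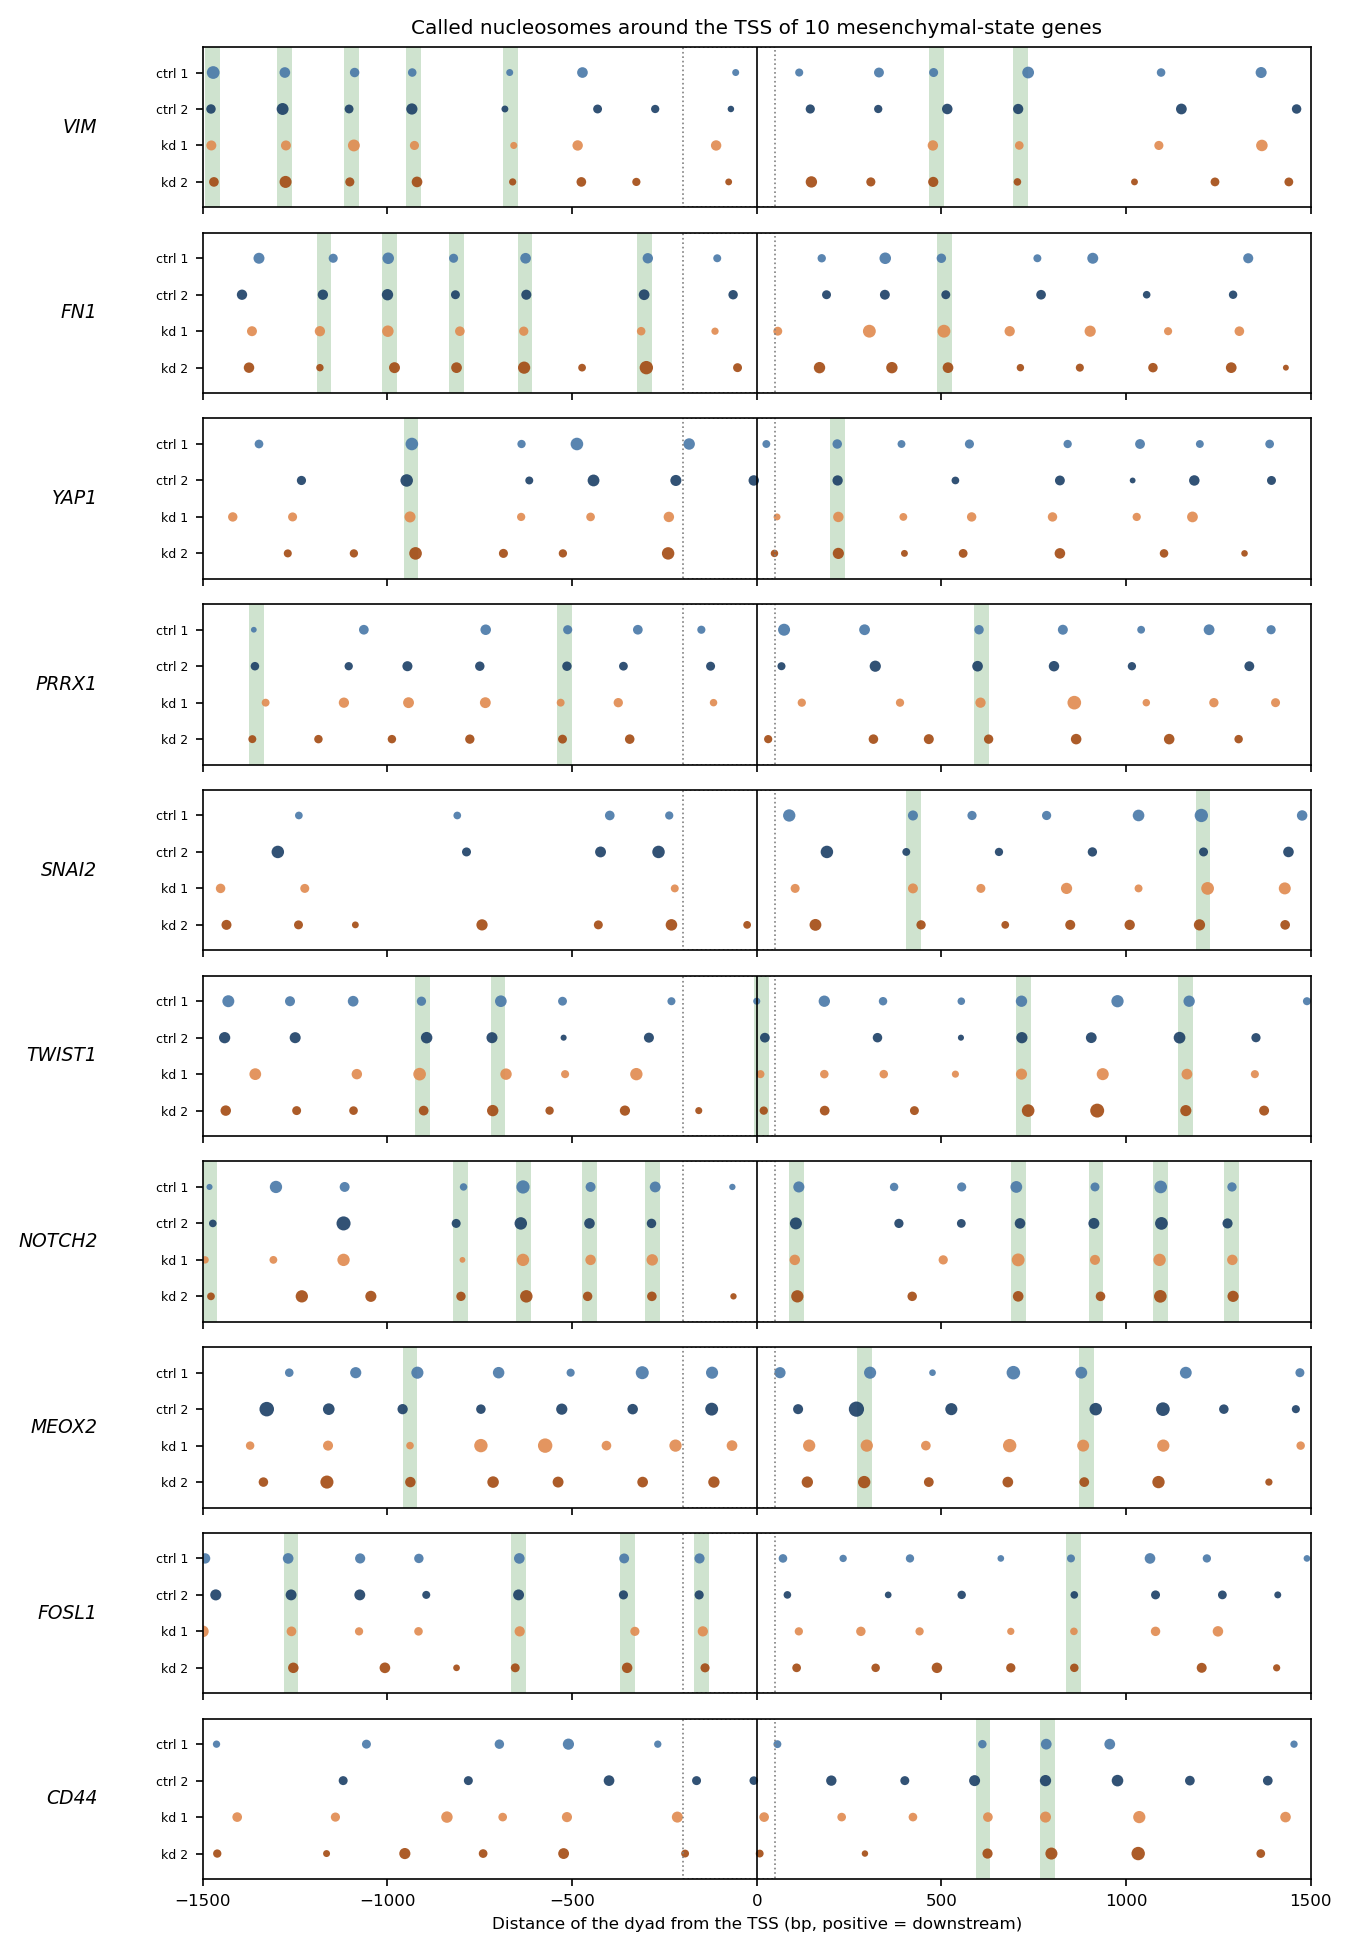
Called nucleosomes up to 1500 bp from the TSS of the 10 genes. The x axis is the distance of the dyad from the TSS in bp, each row is 1 library (blue control, orange MYCN knockdown), the size of a point grows with its reads, dotted lines bound the TSS window, and green bands mark nucleosomes shared by the 4 libraries within 40 bp. NOTCH2 has the most bands and MEOX2 few, and VIM has an even row of bands upstream of the TSS.

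Within 5 kb on both sides each gene had 33 to 47 called nucleosomes per library. The mean over libraries ran from 37.3 in SNAI2 to 46.0 in FOSL1, and the median of the 10 genes (42.3) equalled that of all promoters. The mean over the 10 genes was 39.7 and 43.7 in the controls and 40.3 and 44.1 in the knockdown libraries, so replicates differed by more than groups (0.50 higher upon knockdown, with an SD between replicates of 2.76). The median distance between neighbouring dyads was shortest in NOTCH2 (200 bp as a mean over libraries, from 191 to 206 bp) and longest in CD44 (237 bp) and SNAI2 (232 bp), which also had the lowest promoter occupancy.

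A nucleosome was counted as shared when 1 dyad of each library was mutually closest in all pairs of libraries and the 4 lay within 40 bp. There were 107 shared nucleosomes in the 10 genes. NOTCH2 had 25, at percentile 99.6 of all promoters, FOSL1 16, VIM 14, FN1 12, TWIST1 11 and PRRX1 9, the median of all promoters. CD44 and SNAI2 had 6 each, YAP1 5, and MEOX2 3, at percentile 4.90. The number moved with the limit, to 51 within 20 bp and 176 within 70 bp. The number did not follow the read level within 5 kb in every gene. NOTCH2 and FOSL1 were high and CD44 and SNAI2 low in both, but VIM shared 14 at a level of 0.965 times the median bin of the genome, YAP1 5 at 1.17 times and MEOX2 3 at 1.03 times. The part of read depth in these numbers was not tested.

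**Figure D5:**
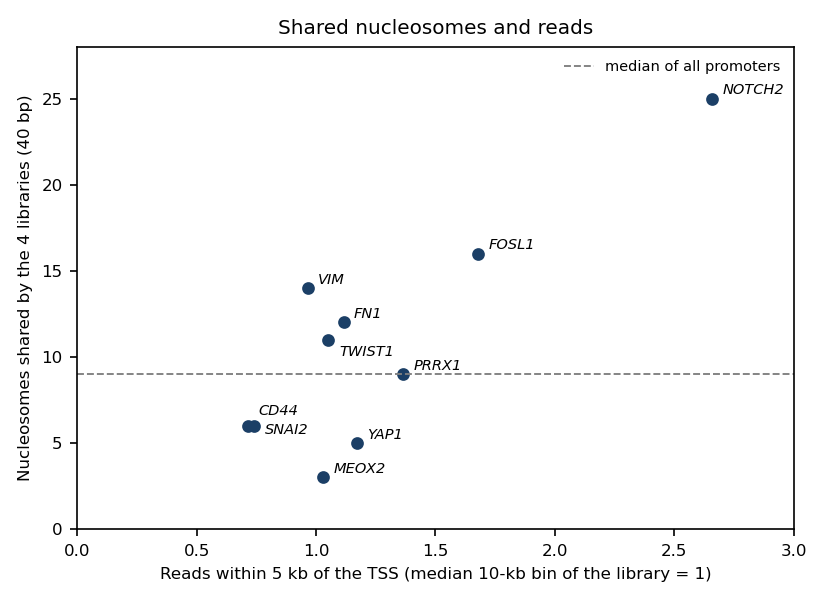
Shared nucleosomes and read level of the 10 genes. The x axis gives reads within 5 kb of the TSS relative to the median 10000-bp bin of the library, averaged over the 4 libraries, the y axis the number of nucleosomes shared by the 4 libraries within 40 bp, and the dashed line is the median of all promoters (9). NOTCH2 is at 2.66 with 25 and MEOX2 at 1.03 with 3.

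The nucleosome of NOTCH2 whose sequence is printed above had its dyad at −275 and −285 bp in the controls and at −283 and −284 bp in the knockdown libraries. It held 38 and 43 reads in the controls and 43 in each knockdown library, so its reads did not follow the depth of the libraries. Its fuzziness, the SD in bp of the read midpoints around the dyad, was 25.5 and 23.6 bp in the controls and 23.6 and 21.9 bp in the knockdown libraries, against a promoter mean of 35.2 bp in NOTCH2. A second nucleosome of NOTCH2 at −3402 bp spread over 3 bp between libraries. Its reads were 62 and 93 in the controls and 59 and 102 in the knockdown libraries. Downstream, the first shared nucleosome lay at 108 bp and held 40 and 69 reads in the controls and 36 and 71 in the knockdown libraries.

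In YAP1 the first shared nucleosome downstream of the TSS had its dyad at 218 and 219 bp in the controls and at 221 bp in both knockdown libraries. It held 13 and 25 reads in the controls and 16 and 29 in the knockdown libraries. This position differed by 3 bp over the 4 libraries. VIM had a row of 5 shared nucleosomes upstream, at −1667, −1474, −1278, −1097 and −929 bp, each within 15 bp between libraries. TWIST1 was the only one of the 10 with a shared nucleosome over the TSS itself, with dyads at 0 and 22 bp in the controls and at 10 and 19 bp in the knockdown libraries and 7 to 18 reads. In MEOX2 the 3 shared dyads each spread over 37 to 40 bp.

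Dyads moved as far between replicates as between groups. Over 176 nucleosomes of the 10 genes matched within 70 bp, the median distance between knockdown and control was 11 bp at replicate number 1 and 16 bp at number 2, and it was 12 bp between the controls and 13 bp between the knockdown libraries. Over 305178 nucleosomes of all promoters the same medians were 13, 15, 14 and 15 bp. In YAP1 the median between knockdown and control was 9 bp at number 1 and 31 bp at number 2, with 22 bp between the controls (16 nucleosomes).

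Fuzziness was averaged over the nucleosomes of a promoter, weighted by reads, and a lower value means better kept positions. VIM had the lowest mean of the 10 genes, 30.4 bp over the 4 libraries, at percentile 1.30 of 20044 promoters with a median of 34.6 bp. It was 28.9 and 32.4 bp in the controls and 27.3 and 32.8 bp in the knockdown libraries, low in each library beside the medians of all promoters (33.7, 35.6, 33.7 and 35.5 bp). MEOX2 had the highest, 36.4 bp at percentile 88.7. The other 8 genes lay from 33.3 bp in SNAI2 to 35.6 bp in FOSL1.

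Upon MYCN knockdown fuzziness was called different in none of the 10 genes and in none of the 20044 promoters (0%), by limma with Benjamini-Hochberg adjustment. At an unadjusted p under 0.05 there were 266 promoters (1.33%) and 0 of the 10 genes. CD44 had the lowest change, −2.81 ± 2.08 bp (SE, adjusted p = 1 by limma), with 34.7 and 37.3 bp in the controls and 32.6 and 33.7 bp in the knockdown libraries. SNAI2 followed with −2.17 ± 2.06 bp, from 34.8 and 33.9 bp to 31.8 and 32.6 bp. In CD44, SNAI2 and YAP1 both knockdown libraries were below both controls, as in 11.8% of all promoters, and in none of the 10 genes were both above both controls, against 10.8%. MEOX2 had the highest change, 2.45 ± 2.11 bp, from 33.2 and 37.1 bp to 36.5 and 38.8 bp, with overlapping groups.

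Genes of the same and of neighbouring pathways gave the following promoter occupancy values, where those named are the highest and lowest among the genes that changed one way at both replicate numbers. Among 30 other mesenchymal transcription factors 0 passed the edgeR test in either direction, 1 had an unadjusted p under 0.05, and the median log2 change was −0.03. Highest of these were TBX18 (0.23) and RUNX1 (0.15), and lowest were SNAI1 (−0.30), a relative of SNAI2, and MEOX1 (−0.24), the paralog of MEOX2. SNAI1 had 268 and 385 reads in the controls and 199 and 323 in the knockdown libraries (adjusted p = 0.999 by edgeR). Among 25 genes of mesenchymal matrix, adhesion and cytoskeleton 0 passed, 1 had an unadjusted p under 0.05, and the median was −0.04. Here POSTN (0.18) and CALD1 (0.17) were highest, and ITGA5, an integrin chain that binds fibronectin, was lowest (−0.30, adjusted p = 0.999 by edgeR), before CDH11 (−0.26).

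Among 25 genes of the Hippo and NOTCH pathways 0 passed, 0 had an unadjusted p under 0.05, and the median log2 change was 0.02. HES1, a target of NOTCH signalling, was highest (0.28; reads 134 and 201 in the controls, 159 and 237 in the knockdown libraries), followed by the Hippo kinase LATS1 (0.26). ANKRD1, a target of YAP1, was lowest (−0.21), followed by AJUBA (−0.20). Among 25 adrenergic-state genes 0 passed, 1 had an unadjusted p under 0.05, and the median was −0.03. Among those that changed one way at both numbers, SOX11 (0.17) and EYA1 (0.17) were highest (the highest of all 25 was 0.29), and HAND1 (−0.33, adjusted p = 0.999 by edgeR) and DDC (−0.24), an enzyme of catecholamine synthesis, were lowest. In the TSS window, the median read density relative to the surroundings was 0.756 for the 10 genes, 0.762 for the matrix genes, 0.538 for the other mesenchymal transcription factors, 0.479 for the Hippo and NOTCH genes and 0.337 for the adrenergic-state genes, beside 0.621 for all promoters. The window was filled in all 4 libraries in 40% of the 10 genes, 36% of the matrix genes, 6.67% of the other mesenchymal factors, 12% of the Hippo and NOTCH genes and 20% of the adrenergic-state genes, beside 19.96% of all promoters. With the dyad inside the window as the criterion these shares were 60%, 44%, 23.3%, 40% and 36%, beside 42.6% of all promoters.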

How the data were processed

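MNase-seq libraries of control and MYCN siRNA-treated BE(2)C cells (2 each) were analysed from the deposited nucleosome lists. According to the submitters' processing notes and the study's methods, the authors processed reads with CASAVA 1.9, Trim Galore 0.4.4 and Bowtie2 2.2.4 against hg19, kept pairs of mapping quality above 10, removed duplicates and called nucleosomes per library with Genetrack, leaving out those with few reads. The study's methods describe the occupancy of a nucleosome as a normalized read count. The deposited read counts per nucleosome are whole numbers with differing totals and were taken as unscaled. The deposited fuzziness score is an SD in bp, as the authors describe it. Reads outside called nucleosomes are not counted, and MNase cuts depend on base composition, so a GC correction was among the alternatives.

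TSSs came from GENCODE 44 lifted to GRCh37 (canonical in 19881 of 20163 genes, otherwise the start of the transcript with the longest genomic span). Summed counts were tested with edgeR 4.0.16 (R 4.3.3, TMM, quasi-likelihood, group only, mean of at least 10 reads), DESeq2 1.42.0 was an alternative, and fuzziness of promoters with at least 3 nucleosomes in every library was tested with limma 3.58.1. Positions and windows were handled in Python 3.11.15. Scripts were tested on simulated data. Alternatives were the replicate block, GC correction, other scaling, filters, windows and start sites, and leaving out each library. All 10 genes are named. From each of 4 lists of pathway genes (105 genes) any past the test were to be named, otherwise the 2 highest and 2 lowest among those changing one way at both replicate numbers, and of the 500-bp windows the 3 with the smallest p. The genes, lists and tests were chosen with earlier results of these data known.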

Additional observations from a re-analysis of the deposited data

How the results depend on the processing

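Under 274 alternatives of 33 results, no promoter, window or fuzziness value of the 10 genes was called by any fit. Over all promoters, occupancy calls stayed at 0 except without MYCN knockdown replicate 2 (range without 1 library 0 to 1), and fuzziness calls ranged from 0 to 10 without 1 library. The labels give both groups replicate numbers 1 and 2 but do not say what a number marks, and deviations of same-numbered libraries correlated at 0.29 over 20106 promoters. With a replicate block the calls were 0 for promoter occupancy, 0 for 500-bp windows and 3 for fuzziness, none of them in the 10 genes. Where 1 library is left out, the lone library of its group is assumed to vary like the other group.

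The mean number of the 10 genes with an empty TSS window was 1.5 higher upon knockdown, −0.50 with 50% of the nucleosome inside or the dyad inside the window, 2.0 at the most upstream start site and 2.0 with the minimum read count scaled to depth (6 reads in replicates numbered 1, 10 in those numbered 2). It was 2 at number 1 and 1 at number 2. Of all promoters 58.4% and 61.5% were empty in the controls with the scaled minimum, and 60.3% and 61.3% in the knockdown libraries. Shared nucleosomes were 51 within 20 bp and 176 within 70 bp, against 107. The number within 5 kb ranged from −1.5 to 2.5 without 1 library. The widest distance between dyads at the TSS was larger in both knockdown libraries in 3 genes with the scaled minimum, added after seeing the data, against 2. Over all promoters the shares were 17.0% with the scaled minimum and 15.7% without it.

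None of the values of single genes was called. In 35 alternatives such a value turned sign, and the cause was not tested. With the TSS window alone occupancy changed by −0.27 in FN1, −0.26 in PRRX1, −0.25 in MEOX2, −0.040 in FOSL1, −2.21 in YAP1 (against −0.015 for the promoter), 0.44 in TWIST1 and 0.51 in CD44 (log2), and NOTCH2, SNAI2 and VIM fell under the filter. Within 5 kb it was 0.047 in YAP1, −0.062 in PRRX1, 0.092 in NOTCH2 and −0.057 in FOSL1. At the most upstream start site it was −0.13 in SNAI2 and 0.059 in NOTCH2. With GC correction SNAI2 was at −0.0067, and at −0.0060 with the replicate block as well. Unweighted fuzziness changed by −0.40 bp in PRRX1 and 0.025 bp in NOTCH2. Leaving out 1 library moved occupancy over −0.23 to −0.0005 in VIM, −0.0027 to 0.25 in FN1, −0.040 to 0.016 in YAP1, −0.092 to 0.17 in PRRX1, −0.10 to 0.13 in SNAI2, −0.012 to 0.45 in TWIST1, −0.12 to 0.052 in NOTCH2, −0.0002 to 0.28 in MEOX2, −0.13 to 0.18 in FOSL1 and −0.14 to 0.34 in CD44. It moved fuzziness over −3.40 to 2.12 bp in VIM, −2.34 to 2.39 bp in PRRX1, −1.71 to 1.45 bp in TWIST1, −1.15 to 0.48 bp in NOTCH2, −0.073 to 3.15 bp in FOSL1, 0.47 to 4.44 bp in MEOX2, −4.12 to −1.51 bp in CD44, 0.046 to 3.02 bp in FN1, −1.74 to −0.24 bp in YAP1 and −2.63 to −1.71 bp in SNAI2.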
